A study of Mus musculus with 6 samples.

Results

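MHC class I molecules show peptides from inside a cell to CD8+ T cells and natural killer cells. The genes described here are 10 that build, load or switch on these molecules: the heavy chains H2-K1, H2-D1, H2-M3 and H2-T23, the light chain B2m, the peptide transporter genes Tap1 and Tap2, the loading factor Tapbp, the peptide trimming enzyme Erap1 and the transcription activator Nlrc5. They are a list of symbols drawn up with earlier results of these data known, and all 10 were found among the 31771 gene identifiers of the table and were abundant enough to be tested. The libraries hold poly-A RNA of spleen pieces of 6 mice, all given the strain C57BL/6. The 3 mutants carried VEC-Cre (Cre recombinase driven by the VE-cadherin promoter), an SB Transposase (Sleeping Beauty) and the onc2 transposon, and the 3 controls were labelled WT. Ages were not analysed here. The mutants combine all 3 alleles, so none of them has a group of its own. The stated aim was to compare which cells the spleens held. VE-cadherin is a protein of endothelium, and its promoter is also active in the embryonic endothelium that gives rise to blood cells, so transposon insertions can differ from animal to animal and from cell to cell.

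Libraries held 72902118 to 79258116 gene counts, which are given below as CPM, the count per 1000000 gene counts of the library. The spleen label was checked against markers. In controls the summed level of 8 B-cell markers was 5253 to 5905 CPM and that of 8 T-cell markers 660.1 to 820.7 CPM. In mutants these sums were 40.2 to 93.8 and 25.6 to 305.2 CPM. The highest T-cell sum among mutants was that of mutant 2. Cd4, named after its values were seen, was at 197 CPM there, against 85.0 to 107 CPM in controls. The median of the 8 T-cell markers was 2.08%, 16.4% and 1.84% of the control mean in mutants 1, 2 and 3. The 7 macrophage and monocyte markers summed to 731.7 to 1020 CPM in controls, against to 276, 3945 and 594 CPM in mutants 1, 2 and 3. Xist, the RNA of the inactive X chromosome, was at 1513 and 580.1 CPM in mutants 1 and 2 and at 0.423 to 0.663 CPM in mutant 3 and the controls, so only mutant 3 matched the controls in sex. Nothing in the labels ties an animal to a batch. The biological coefficient of variation was 72.7% among mutants and 17.1% among controls. In RNA from a whole piece of tissue, fewer cells of a type and less RNA per cell cannot be told apart.

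A class I molecule is a heavy chain paired with beta-2-microglobulin, the product of B2m. Peptides cut by the proteasome are pumped into the endoplasmic reticulum by the transporter made of Tap1 and Tap2, trimmed by Erap1, and fitted into the groove of the heavy chain with the help of tapasin, the product of Tapbp. Nearly all nucleated cells make class I molecules, lymphocytes most of all, while mature red cells do not. Nlrc5 acts on class I promoters in the way that Ciita acts on class II promoters, and interferons and NF-kappaB raise the same genes.

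The promoters of the classical heavy chains carry the elements through which these signals act, and 4 stretches are shown because they let the members be compared at the level of sequence. The RefSeq table of GRCm38.p6 promoters matched 8 of the 10 members (Tap2 and Nlrc5 had no entry), each as a window of 250 bases before the transcription start and 50 after it. Each stretch below lies before the RefSeq start and is written 5′ to 3′ on the strand of the gene. Capitals mark matches, on either strand, to GGGGATTCCC (a form of the NF-kappaB element), GTTTCACTTC or GAAANTGAAA (interferon response elements), TGACG (the core of a cyclic AMP response element) and CCAAT. Only these letters were searched, so any other form of an element stays in lower case.
H2-K1, minus strand, chr17:34000357-34000463: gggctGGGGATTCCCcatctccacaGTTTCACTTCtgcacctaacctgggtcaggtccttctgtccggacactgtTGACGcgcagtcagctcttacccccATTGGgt
H2-D1, plus strand, chr17:35262918-35263024: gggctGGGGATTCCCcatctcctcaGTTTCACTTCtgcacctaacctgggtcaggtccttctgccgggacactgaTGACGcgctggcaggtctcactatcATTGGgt
H2-M3, plus strand, chr17:37270107-37270204: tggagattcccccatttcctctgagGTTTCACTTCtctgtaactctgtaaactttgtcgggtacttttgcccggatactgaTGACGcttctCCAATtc
B2m, plus strand, chr2:122147523-122147640: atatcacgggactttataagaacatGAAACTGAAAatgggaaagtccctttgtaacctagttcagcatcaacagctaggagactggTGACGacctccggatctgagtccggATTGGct

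The H2-K1 and H2-D1 stretches were identical at 96 of 107 bases (89.7%), and their 4 elements had the same spacing: 20 bases from the first base of the NF-kappaB element to that of the interferon element, 50 from there to TGACG and 25 from there to the CCAAT match. The H2-M3 stretch held the interferon element GTTTCACTTC but no match to GGGGATTCCC. B2m and Erap1, whose match reaches across its transcription start, held GAAANTGAAA in their windows, and the windows of Tap1, Tapbp and H2-T23 held a match to none of the 3 longer motifs. Of all 32851 windows of 300 bases in the table, 0.107% held GGGGATTCCC, 0.14% held GTTTCACTTC, 0.791% held GAAANTGAAA, 20.8% held TGACG and 37.4% held CCAAT. The motifs were copied from promoter windows. Each motif, GGGGATTCCC included, was taken from the window of a named gene, so its match in that gene was fixed in advance. GTTTCACTTC came from H2-K1 and GAAANTGAAA from B2m. A match is a description of letters only.

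Near-identical copies limit how exactly reads can be assigned to the heavy chains. Of the 50-base windows along the longest coding transcript in GENCODE M21, 28.8% of those of H2-T23, 14.3% of those of H2-D1 and 8.79% of those of H2-K1 also occurred in transcripts of other genes, with H2-Q1 among the most frequent for each. For Tapbp the share was 2.0%, for Tap1, Tap2 and H2-M3 it was under 1%, and for B2m, Nlrc5 and Erap1 it was 0. How the authors treated such reads is not given in the sources used here, so the values of H2-T23, H2-D1 and H2-K1 carry that uncertainty. The pseudogene H2-Ea-ps of the same H2 complex, named after its values were seen, was at 64.2 to 80.7 CPM in controls, against 0 to 0.0672 CPM in mutants. Whether the groups differ in the sequence of this complex was not tested, and this applies to every H2 gene described below, among them H2-K1, H2-D1, H2-T3 and H2-Q1. Tap1 also overlaps the start of the proteasome gene Psmb9 on the opposite strand, and the strand setting of the counting is not stated.

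Class I transcripts were abundant in every spleen. Together the 10 genes took 0.842% to 1.10% of all counts in controls and 0.604%, 0.895% and 0.347% in mutants 1, 2 and 3. Mutant 2 thus lay within the range of the controls, while mutants 1 and 3 lay below it. Divided by exon length, the order of the control levels was B2m (2214 CPM per kb), H2-D1 (1242), H2-K1 (988), H2-T23 (109), Tapbp (97.5), Tap1 (70.7), H2-M3 (52.2), Tap2 (39.4), Nlrc5 (13.6) and Erap1 (6.33). The ranges of neighbours in this order overlapped for H2-D1 with H2-K1 and for H2-T23 with Tapbp, and the others were apart. In mutants the order per kb was B2m (1944), H2-K1 (659), H2-D1 (623), H2-T23 (85.5), Tapbp (56.9), Tap1 (46.3), Tap2 (28.6), H2-M3 (17.01), Nlrc5 (6.70) and Erap1 (6.31). There the ranges of all neighbours overlapped except B2m with H2-K1 and H2-D1 with H2-T23. H2-M3 had moved from above Tap2 to below it, although the ranges of that pair overlapped in mutants.

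No member passed the test between mutant and control spleens. By edgeR's quasi-likelihood test 0 of 10 were higher and 0 of 10 lower at an adjusted p under 0.05, against 5.08% of the 19573 genes tested that were called higher and 6.9% called lower. DESeq2 called 0 members (8.49% of its genes lower) and limma-voom 0 (10.2%), while limma-voom with sample weights called 3 lower, H2-D1, H2-M3 and Tapbp (9.4%). At an unadjusted p under 0.05 edgeR had 1 member, H2-M3, where 31.2% of all genes tested reached that level. The fitted log2 fold change was negative for 9 of 10 members, with a median of -0.57, against a median of 0.10 over all genes tested. With upper-quartile scaling that median over all genes moved to 0.0028 and the median of the members to -0.67. In 4 members (H2-K1, H2-D1, Tapbp and H2-M3) every mutant lay below every control, an arrangement that 22.6% of all genes tested showed, and in 0 members did every mutant lie above, as in 18.0% of all genes.

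**Figure D1:**
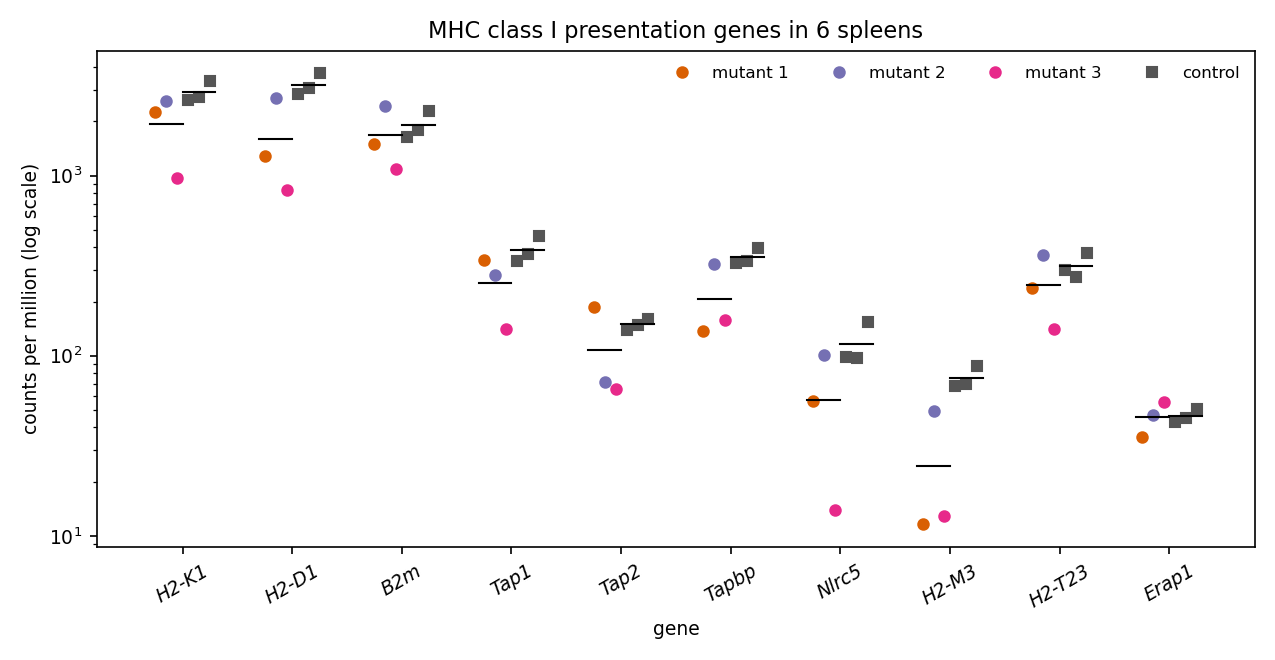
Levels (CPM) of the 10 class I presentation genes in each of 6 spleens, on a log axis, with circles for mutants 1 to 3, squares for the 3 controls and horizontal lines for the group means. Mutant 3 is the lowest mutant for 7 of the genes, the controls lie close together, and Erap1 lies at the same mean level in both groups; levels of different genes are not comparable here because gene length was not taken into account.

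The classical heavy chains, which present peptides to CD8+ T cells, were below the controls in all 3 mutants, but by very different amounts. H2-K1 (ENSMUSG00000061232, GRCm38 chr17:33996017-34000347) was at 2622, 2739.6 and 3345 CPM in controls 1, 2 and 3, and at 2255, 2585 and 969.8 CPM in mutants 1, 2 and 3. Mutant 2 was just under the lowest control and mutant 3 at 33.4% of the control mean. The group means were 2902 ± 388 and 1936 ± 853 CPM (SD, n = 3 each), and the log2 fold change was -0.55 ± 0.42 (SE, edgeR adjusted p = 0.419). H2-D1 (ENSMUSG00000073411, chr17:35262730-35267499) was at 2847, 3064 and 3702 CPM in controls, against 1285, 2704 and 830.1 CPM in mutants. Here mutants 1 and 3 both stood well under the controls, at 40.1% and 25.9% of the control mean, and mutant 2 at 84.4%. The means were 3204 ± 445 and 1606 ± 977 CPM (SD, n = 3 each; log2 -0.95 ± 0.50, edgeR adjusted p = 0.246).

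B2m (ENSMUSG00000060802, chr2:122147686-122153083), the light chain that every class I heavy chain needs to reach the cell surface, overlapped between the groups. It was at 1641, 1795 and 2276 CPM in controls, against 1498, 2431 and 1085 CPM in mutants. Mutant 2 was above all 3 controls and mutants 1 and 3 were below them. The means were 1904 ± 331 and 1671 ± 689 CPM (SD, n = 3 each; log2 -0.15 ± 0.38, edgeR adjusted p = 0.815). Without mutant 3 the fitted change had the opposite sign (log2 0.10).

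Among the nonclassical heavy chains, H2-M3 differed most of all 10 members between the group means, although it did not pass. H2-M3 (ENSMUSG00000016206, chr17:37270220-37274484) presents formylated peptides, such as those of bacteria. It was at 68.0, 69.3 and 88.1 CPM in controls, against 11.6, 49.0 and 12.8 CPM in mutants, so every mutant was below every control and mutants 1 and 3 were at 15.4% and 17.1% of the control mean. Its log2 fold change was -1.56 ± 0.63 (SE, n = 3 each; edgeR adjusted p = 0.156), and without mutant 2 it was -2.65 (adjusted p = 0.00183). H2-T23 (ENSMUSG00000067212, chr17:36029773-36032855) encodes Qa-1, the ligand of the natural killer receptor of Klrc1 and Klrd1. It was at 300.4, 275 and 370.3 CPM in controls, against 236, 363 and 142 CPM in mutants. Mutant 2 lay among the controls and the others below them (log2 -0.31 ± 0.39, edgeR adjusted p = 0.618).

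The genes that supply peptide varied separately. Tap1 (ENSMUSG00000037321, chr17:34187553-34197225) was at 336, 366 and 459.8 CPM in controls, against 339.9, 280.3 and 140.5 CPM in mutants. Tap2 (ENSMUSG00000024339, chr17:34203527-34216321), which encodes the other part of the same transporter, was at 139, 148 and 160.3 CPM in controls, against 187, 71.2 and 65.5 CPM in mutants. Mutant 1 was above every control for Tap2 and among the controls for Tap1, while mutants 2 and 3 were below every control for both genes. The log2 fold changes were -0.59 ± 0.36 for Tap1 and -0.46 ± 0.42 for Tap2 (edgeR adjusted p = 0.316 and 0.496). Without mutant 1 Tap2 fell (log2 -1.08, adjusted p = 0.0145), a fit in which edgeR called 9.47% of all genes lower.

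Tapasin bridges the transporter and the empty heavy chain. Tapbp (ENSMUSG00000024308, chr17:33915899-33929292) was at 329, 337 and 396 CPM in controls, against 138, 323 and 158 CPM in mutants. Mutant 2 was just under the lowest control and mutants 1 and 3 were at 39.0% and 44.6% of the control mean (log2 -0.74 ± 0.39, edgeR adjusted p = 0.247). In mutant 1, then, Tapbp was at 39.0% of the control mean while Tap2 was at 126%. Erap1 (ENSMUSG00000021583, chr13:74639568-74693201), which shortens peptides to the length that the groove accepts, was at 42.95, 44.8 and 50.5 CPM in controls, against 35.4, 47.1 and 55.3 CPM in mutants. Its means were 46.1 ± 3.91 and 45.9 ± 10.04 CPM (SD, n = 3 each), with a log2 fold change of 0.01 ± 0.21 (edgeR adjusted p = 0.986) whose sign varied with the scaling and the filter. Unlike the other 9 members, Erap1 was highest among mutants in mutant 3.

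Nlrc5 (ENSMUSG00000074151, chr8:94434356-94527272), the class I transactivator, had, in mutant 3, the lowest value of any member relative to its controls. It was at 98.1, 96.5 and 153 CPM in controls, against 55.9, 101 and 13.8 CPM in mutants. Mutant 2 was among the controls, mutant 1 at 48.3% of the control mean and mutant 3 at 12.0%. The log2 fold change was -0.97 ± 0.69 (edgeR adjusted p = 0.379). In mutant 3, 8 other members were also below every control, from H2-M3 at 17.1% to B2m at 57.0% of the control mean. Of all genes tested 42.6% were below every control in that mutant. A link between the level of Nlrc5 and those of the other members was not tested.

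Ratios within a library are free of the scaling between libraries, and 4 were compared by an exact permutation test (2-sided), whose smallest possible p is 0.1 for 3 against 3. B2m counts were 0.300 to 0.323 of the H2-K1 and H2-D1 counts together in controls and 0.423, 0.460 and 0.603 in mutants. B2m was thus higher relative to the heavy chains in 3 of 3 mutants (log2 difference 0.66, exact permutation p = 0.1, adjusted p = 0.133 over the 4 ratios). The ratio of H2-K1 to H2-D1 was 0.894 to 0.921 in controls and 1.75, 0.956 and 1.17 in mutants. It was likewise higher in 3 of 3 mutants (log2 difference 0.47, exact permutation p = 0.1, adjusted p = 0.133), with mutant 2 close to the controls. The parts of shared reads and of a possible difference in H2 sequence between the groups were not tested. This holds for the ratio of H2-K1 to H2-D1 and for that of B2m to both heavy chains.

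The ratio of Nlrc5 to Ciita, the class II transactivator, was 0.737 to 0.967 in controls and 26.8, 2.32 and 2.26 in mutants 1, 2 and 3. Ciita itself was at 119 to 158 CPM in controls, against 2.08, 43.4 and 6.14 CPM in mutants (edgeR adjusted p = 0.139). All 3 mutants lay above the controls in this ratio (log2 difference 2.63, exact permutation p = 0.1, adjusted p = 0.133). The ratio of Tap1 to Tap2 was 2.41 to 2.87 in controls and 1.81, 3.93 and 2.14 in mutants, on both sides of the controls (log2 difference -0.05, exact permutation p = 1, adjusted p = 1). None of the 4 ratios passed 0.05, and the design could not have let them.

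**Figure D2:**
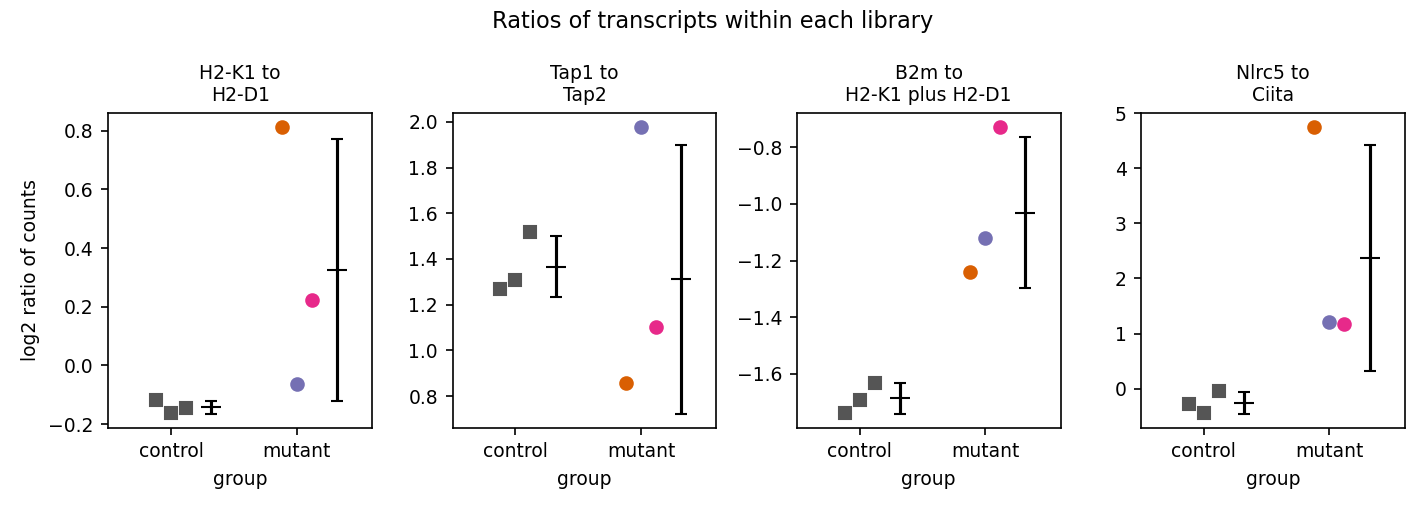
Log2 ratios of counts within each library for 4 pairs of transcripts, with squares for controls, circles for mutants (orange, mutant 1; purple, mutant 2; pink, mutant 3) and bars for the mean ± SD (n = 3 each); each panel has its own scale. The 3 mutants lie above the 3 controls for H2-K1 to H2-D1, B2m to both heavy chains and Nlrc5 to Ciita, and on both sides of them for Tap1 to Tap2.

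The 3 mutants differed widely from each other. Over the 10 members the median level was 75.9% of the control mean in mutant 1, 88.0% in mutant 2 and 40.1% in mutant 3. Mutant 3 was below every control in 9 of 10 members, mutant 1 in 8 and mutant 2 in 6, against 42.6%, 45.2% and 47.3% of all genes tested. The 1 member above every control was Tap2 in mutant 1, B2m in mutant 2 and Erap1 in mutant 3. Control 3 was the highest control in all 10 members. Markers of other cells also differed among the mutants. Mutant 2, the highest mutant in 7 of 10 members, had the highest macrophage and monocyte sum of all 6 libraries. It was also the highest mutant in the sums of neutrophil (1811 CPM) and erythroid markers (46708 CPM). The macrophage and monocyte median did not follow the class I order in the others, at 14.5% of the control mean in mutant 1 and 65.7% in mutant 3. Mutant 3 had the highest sum of 5 megakaryocyte and platelet markers (4791 CPM, against 2792 and 639 CPM in mutants 1 and 2 and 209 to 380 CPM in controls). The part of these cells in the class I levels was not tested.

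Which members were called depended on the mutants included. Without mutant 2 edgeR called H2-D1 (log2 -1.63, adjusted p = 0.0116), H2-M3 and Tapbp (log2 -1.29, adjusted p = 0.00528) lower, in a fit that called 15.3% of all genes lower, and without mutant 1 only Tap2. Without mutant 3 the count of called members was 0 (6.17% of all genes lower), and it was 0 without control 1 (0.636%), control 2 (0.581%) or control 3 (0.627%). Mutant 3 alone, the mutant of the same sex as the controls, differed from the 3 controls in 9 of 10 members, all lower (log2 -0.85 for B2m to -3.10 for Nlrc5), and Erap1 did not pass (log2 0.22, edgeR adjusted p = 0.0789). That fit took its spread from the controls, assumes that the lone mutant varies like them, and called 26.9% of all genes lower. Sex and genotype cannot be told apart in mutants 1 and 2.

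**Figure D3:**
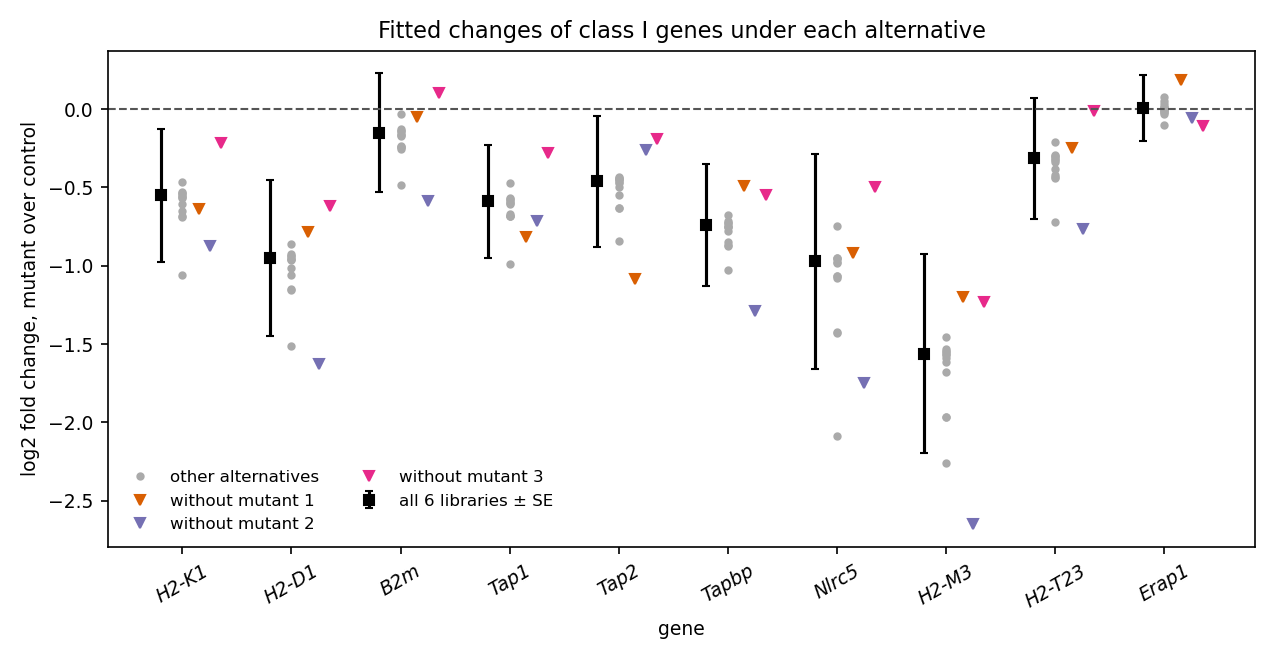
Log2 fold change of mutant over control for each class I gene with all 6 libraries (black squares ± SE), without each mutant in turn (coloured triangles) and under the other alternatives (grey dots), leaving out the fit of mutant 3 alone. For 9 genes nearly all values lie below 0, the exception being B2m without mutant 3 at 0.10, while Erap1 lies on both sides of 0.

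Of 12 other loading and trimming factors, chaperones and peptidases that act beside the members, 5 rose and 0 fell, where 5.08% of all genes were called higher and 6.9% lower. Tapbpl, a relative of tapasin named after its values were seen, was below every control in all 3 mutants (log2 -1.40, edgeR adjusted p = 0.115). The list's median log2 fold change was 0.83 (0.10 over all genes). Thop1, a peptidase that destroys peptides in the cytosol, rose from 14.7 ± 0.326 to 51.9 ± 18.3 CPM (SD, n = 3 each; log2 1.81 ± 0.28, edgeR adjusted p = 0.0172). Pdia3, the disulfide isomerase of the loading complex, rose from 302 ± 12.5 to 535 ± 80.3 CPM (log2 0.83 ± 0.18, adjusted p = 0.0359). Tpp2, another cytosolic peptidase, rose from 51.7 ± 2.55 to 91.4 ± 22.3 CPM (log2 0.82 ± 0.19, adjusted p = 0.0427). These proteins also serve general protein folding and turnover, and members of the list are not particular to class I loading. The calls dropped to 0 with any 1 control left out, to 1 without mutant 3 or with upper-quartile scaling and to 2 with no expression filter, and were 8 without mutant 2, a fit that called 13.6% of all genes higher.

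Of 22 transcription regulators of class I genes, 4 fell (6.9% of all genes did) and 1 rose (5.08%). Their median log2 fold change was -0.47. Relb, an NF-kappaB subunit of the alternative pathway, fell from 104 ± 10.2 to 23.4 ± 5.90 CPM (SD, n = 3 each; log2 -2.14 ± 0.25, edgeR adjusted p = 0.00941). Its partner gene Nfkb2 fell likewise, from 174 ± 11.5 to 44.7 ± 11.1 CPM (SD, n = 3 each; log2 -1.95 ± 0.21, adjusted p = 0.00745). Traf3, an adaptor that restrains that pathway, fell from 109.7 ± 7.67 to 39.1 ± 8.51 CPM (SD, n = 3 each; log2 -1.48 ± 0.19, adjusted p = 0.0104). The remaining 2, named after their values were seen, were Rfx5, a subunit of the complex through which Nlrc5 and Ciita reach DNA (36.9 ± 4.98 to 13.5 ± 2.63 CPM, adjusted p = 0.0142), and Ezh2, the methyltransferase of a repressive histone mark, which rose from 43.1 ± 5.37 to 95.2 ± 5.50 CPM (adjusted p = 0.0163). Among mutants 1, 2 and 3 Relb was at 16.7, 27.8 and 25.7 CPM and Ezh2 at 90.5, 93.9 and 101 CPM. B-cell markers, at under 1% of the control mean in each mutant by their median, moved with Relb, Nfkb2, Traf3 and Rfx5, and their part in these levels was not tested. With any 1 control left out 0 of the 22 passed. The number lower was 10 without mutant 2, where 15.3% of all genes were.

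Other heavy chains varied by gene. Of 23 listed, 19 were found and 18 tested, and 2 fell and 0 rose (median log2 -0.55), where 6.9% of all genes fell and 5.08% rose. H2-T3, which encodes the thymus leukaemia antigen, had 444, 474 and 388 counts in controls and 17, 21 and 4 in mutants (log2 -4.86 ± 0.73, edgeR adjusted p = 0.0157). H2-Q1 had 53, 156 and 56 counts in controls and 0, 3 and 5 in mutants (log2 -4.95 ± 1.04, adjusted p = 0.0343), and its transcript shares windows with H2-K1, H2-D1 and H2-T23. With any 1 control left out the list had 0 calls. It had 1 without mutant 3, 5 without mutant 1 (9.47% of all genes lower) and 5 without mutant 2 (15.3%). The abundant Qa-2 gene H2-Q7, named after its values were seen, was at 277 to 380.0 CPM in controls, against 783, 165 and 88.7 CPM in mutants, above the controls in mutant 1 and below them in the others (edgeR adjusted p = 0.963).

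The proteasome genes that feed the pathway did not pass. Of 6 genes of the immunoproteasome and the PA28 family of activators 0 were called, where edgeR called 6.9% of all genes lower and 5.08% higher. Before adjustment 1 of the 6 had an edgeR p below 0.05, as did 31.2% of all genes. DESeq2 and limma-voom called 0 of the 6, and the fit with sample weights 2 lower (9.4% of all genes). The most abundant, Psme3, was at 284 ± 31.3 CPM in controls, against 317 ± 99.7 CPM in mutants (SD, n = 3 each; edgeR adjusted p = 0.714). Its fitted change (log2 0.18) was the highest of the list, whose median was -0.31. Psmb8 and Psmb9, which lie among the Tap genes on chromosome 17 and were named after their values were seen, were below every control in all 3 mutants: Psmb8 at 119.6, 97.5 and 31.9 CPM against 157 to 190.3 CPM, and Psmb9 at 110.1, 107 and 34.8 CPM against 164 to 225 CPM. Their adjusted p was 0.211 and 0.159 by edgeR. Every mutant lay below every control in 22.6% of all genes tested. Of the 3 standard catalytic subunits edgeR, DESeq2 and limma-voom called 0, and the fit with sample weights called 1 higher (9.41% of all genes). Before adjustment 2 of the 3 had an edgeR p below 0.05. Psmb6 was at 92.9 ± 2.38 and 133 ± 29.96 CPM (adjusted p = 0.118).

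Of 9 interferon receptors, kinases and related genes 0 passed in edgeR, DESeq2 or limma-voom. EdgeR called 5.08% of all genes higher and 6.9% lower. Before adjustment 1 of the 9 had an edgeR p below 0.05, as did 31.2% of all genes. That one was Jak1, a kinase of interferon receptors, at 381 ± 15.4 CPM in controls, against 257 ± 61.1 CPM in mutants (SD, n = 3 each; edgeR adjusted p = 0.119). Of 21 interferon-stimulated genes 1 rose and 0 fell, where 5.08% of all genes rose: Oas1a, a sensor of double-stranded RNA, from 8.60 ± 1.95 to 35.3 ± 14.1 CPM (log2 2.08 ± 0.38, adjusted p = 0.0245), a call lost with any 1 control left out. The median level of this list was 30.4% of the control mean in mutant 1, 284% in mutant 2 and 80.8% in mutant 3, while its median fitted log2 fold change was 0.80. The median of the 7 macrophage and monocyte markers was 14.5%, 432% and 65.7% in the same mutants, and the part of those cells in this list was not tested. The member medians of 75.9%, 88.0% and 40.1% had another order: mutant 1 was the lowest mutant for the interferon-stimulated genes and mutant 3 for the class I genes.

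Of 15 receptors of class I molecules and related receptors 0 passed in edgeR, and 5 had a p below 0.05 before adjustment, as did 31.2% of all genes. DESeq2 called 5 lower (8.49% of its genes) and limma-voom 6 (10.2%). The median of the list was 10.5%, 68.4% and 1.79% of the control mean in mutants 1, 2 and 3. Pirb, an inhibitory receptor of myeloid cells and the most abundant of the list, was at 112 ± 12.0 CPM in controls, against 11.7, 253 and 49.4 CPM in mutants (edgeR adjusted p = 0.990). Lilrb4a, another inhibitory receptor of myeloid cells, named after its values were seen, was at 12.5 to 13.7 CPM in controls, against 2.22, 66.2 and 56.2 CPM in mutants 1, 2 and 3. Without mutant 2 edgeR called 11 of the 15 lower, in the fit that called 15.3% of all genes lower.

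Class II genes gave a different picture from the class I members in the same libraries. The median of 10 class II presentation genes was 2.19% of the control mean in mutant 1, 84.7% in mutant 2 and 2.92% in mutant 3, against 75.9%, 88.0% and 40.1% for the class I members. The 2 lists were thus close in mutant 2 and far apart in mutants 1 and 3, a difference that was not tested. Of the 10 class II genes 3 fell and 0 rose (6.9% and 5.08% of all genes): H2-Oa (log2 -5.02 ± 0.31, edgeR adjusted p = 0.00153) and H2-Ob (log2 -5.17 ± 0.52, adjusted p = 0.00683), the chains of an inhibitor of peptide exchange in B cells, and H2-DMb2, a chain of the exchange factor itself (log2 -5.21 ± 0.61, adjusted p = 0.00908). H2-DMa and H2-DMb1, which encode other chains of that factor and were named after their values were seen, were not called. H2-DMa was at 17.7, 290 and 24.3 CPM in mutants 1, 2 and 3, against 292 to 353 CPM in controls. H2-DMb1 was at 19.8, 168 and 6.15 CPM, against 115 to 130 CPM. H2-Oa was at 111, 119 and 129 CPM in controls, against 2.81, 2.89 and 5.33 CPM in mutants, low in mutant 2 as well. B-cell markers were as low in mutant 2 as in the others (summed 61.3 CPM, against 93.8 and 40.2 CPM). Without mutant 2 all 10 class II genes were lower, in the fit that called 15.3% of all genes lower. With any 1 control left out 2 were, where 0.581% to 0.636% of all genes were.

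**Figure D4:**
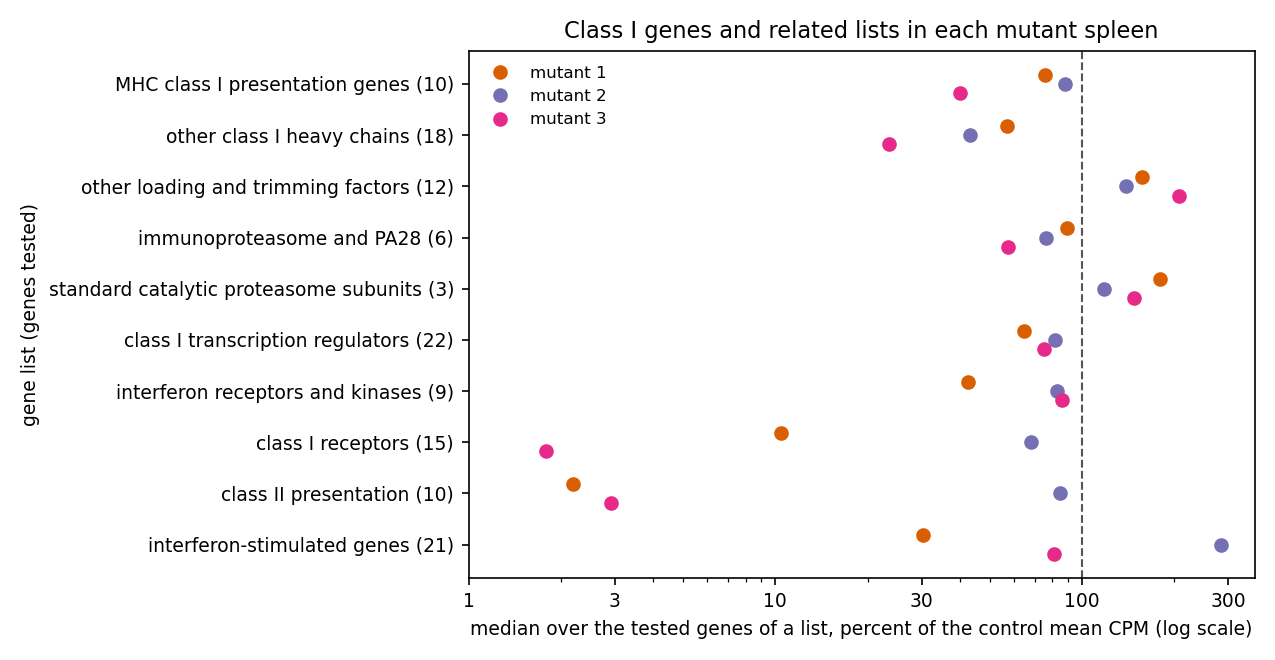
Median level of each gene list in each mutant spleen as a percentage of the control mean CPM, on a log axis, with the number of genes tested in brackets and a dashed line at the control mean. The class I presentation genes lie at 75.9%, 88.0% and 40.1% in mutants 1, 2 and 3, the class II genes at 2.19%, 84.7% and 2.92%, and the other loading and trimming factors at 157%, 139% and 207%.

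As a description over the 6 libraries, which share 2 groups and so correlate widely, the genes whose log2 CPM followed B2m most closely were Myadm (Pearson r = 0.985, n = 6 libraries), Tor3a (0.984), Pm20d1 (0.983), St18 (0.979) and Pglyrp1 (0.978). Of these Pm20d1 was under 1 CPM in every library. Those closest to Nlrc5 were Kif3c (r = 0.995, n = 6 libraries), Nr4a3 (0.994), Grk3 (0.992), Castor2 (0.992) and Prkd3 (0.991). Grk3, a kinase of G-protein-coupled receptors, was at 65.6 to 83.4 CPM in controls, against 47.1, 73.9 and 15.9 CPM in mutants, with mutant 2 among the controls and mutant 3 lowest, as for Nlrc5.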

How the data were processed

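The authors deposited raw counts, whole numbers for each Ensembl identifier, of 3 mutant and 3 control spleens. Libraries were poly-A selected and stranded, from 50 ng of total RNA, per the labels' protocols. STAR 2.5.3a, limma and the builds mm10 and GRCm38 appear in the submitters' processing notes, which give them no role. Which annotation, strand setting and treatment of multiply mapped reads were used is not stated there. Of 31771 identifiers 31669 matched a symbol, and 0 columns lacked a sample.

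Counts were tested with edgeR 4.0.16 in R 4.3.3 (TMM scaling, filterByExpr on the groups, robust quasi-likelihood test, Benjamini-Hochberg adjustment over 19573 genes, threshold 0.05). CPM were computed without TMM factors. Lengths and gene positions are exon unions and genes of GENCODE M21 (GRCm38). The SE was taken as the absolute log2 fold change over the root of the F statistic. Alternatives used DESeq2 1.42.0, limma-voom (limma 3.58.1), other scalings, other filters and each library left out, and the procedure was tested on simulated data. Replicate numbers were given in accession order and serve as names. That each library is 1 animal comes from the series' design text.

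The 10 members and all lists were chosen with earlier results of these data known. All members are named, and from each list the 3 called genes with the smallest p, or the most abundant if none was called. Genes named otherwise are marked as such, except Ciita, which the ratio fixed in the design uses, and the libraries' Xist. The likeness lists take the 5 genes with the highest r and leave out predicted genes, receptor segments and Y-linked genes. The motifs were copied from promoter windows after these were read.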

Additional observations from a re-analysis of the deposited data

How the results depend on the processing

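All genes called higher numbered 995 and lower 1351. Of 16 other fits, DESeq2 gave 2444 and 2640, limma-voom with sample weights 1842 higher, limma-voom with separate group variances 786 lower, and mutant 3 alone against the controls 5602 and 5864. With 1 library left out the calls ranged from 4 to 2794 higher and from 119 to 3137 lower, the lowest without control 2 and the highest without mutant 2. They were 6 higher and 130 lower without control 1, 8 and 128 without control 3, and 1780 higher without mutant 1.

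Among the 10 class I genes 0 were called higher in any fit. The number lower was 0 in the main test, 3 by limma-voom with sample weights and 9 for mutant 3 alone, and 0 to 3 with 1 library left out. The fitted changes of H2-K1, H2-D1, Tap1, Tap2, Tapbp, Nlrc5, H2-M3 and H2-T23 kept their direction in all 16. That of B2m reversed without mutant 3 (0.10) and ranged from -0.59 to 0.10 with 1 library left out. That of Erap1 (0.0070) reversed with upper-quartile factors (-0.10), without haemoglobin and immunoglobulin genes (-0.0048), with at least 1 CPM in 3 libraries (-0.0045), by limma-voom (-0.016) and limma-voom with separate group variances (-0.016), and ranged from -0.11 to 0.18 with 1 library left out. Psme3 reversed by limma-voom with sample weights (-0.066) and for mutant 3 alone (-0.19), and ranged from -0.17 to 0.34 with 1 library left out. Pirb reversed with no expression filter (0.0030) and ranged from -1.91 to 0.52. The difference in the log2 ratio of Tap1 to Tap2 ranged from -0.39 to 0.17 with 1 library left out, and the other 3 ratios kept their direction, also with 0.5 added to each count. The cause of these changes was not tested.

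No paired analysis was possible because the labels give mutants and controls no shared numbers. At these depths, counting error is small beside the spread between mutants, but not for genes at few counts in a mutant library, such as H2-Q1, H2-T3, H2-Ea-ps, Pm20d1 and St18.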

Other observations

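The pseudogene H2-Ea-ps (ENSMUSG00000036322, chr17:34341959-34344645), a class II alpha chain gene of the H2 complex and chosen after its values were seen, was at 64.2, 80.7 and 75.3 CPM in controls, against 0.0274, 0.0672 and 0 CPM in mutants 1, 2 and 3. Mutant 2 had H2-Eb1, the gene of the matching beta chain, at 2745 CPM, against 1255 to 1426 CPM in controls. Some other class II genes were low there too. H2-Oa, H2-Ob and H2-DMb2 were at 2.42%, 3.47% and 4.59% of the control mean in mutant 2, where the class II median was 84.7%. B-cell markers were at under 1% in each mutant by their median, and their part in these levels was not tested. The class I gene H2-K2 (ENSMUSG00000067203, chr17:33974659-33978827), chosen in the same way, was at 63.9, 68.6 and 76.8 CPM in controls, against 14.2, 13.6 and 22.4 CPM in mutants (log2 -2.06 ± 0.23, edgeR adjusted p = 0.00818). It lies next to H2-K1, whose level in mutant 2 was 89.1% of the control mean. All 6 mice carry the same strain label. Whether the H2 complex differs in sequence between the groups was not tested.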
